A study of Rattus norvegicus with 16 samples.

Results

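The mechanically gated channels Piezo1 and Piezo2 and the acid-sensing ion channels Asic1, Asic2, Asic3 and Asic4 were followed in rat dorsal root ganglia (DRG) during the development of tibial bone cancer. The members were the rows carrying these gene symbols, 6 of the 21021 genes listed. Their Entrez gene identifiers were 361430 for Piezo1, 307380 for Piezo2, 79123 for Asic1, 25364 for Asic2, 286920 for Asic3 and 63882 for Asic4. Adult female Sprague-Dawley rats received Walker-256 rat mammary carcinoma cells in the left tibia (tumor cell implantation, TCI), and RNA-seq was run on ipsilateral L3, L4 and L5 ganglia taken on day 1, 7 or 14. The ganglia of 1 animal were pooled into 1 sample, and each of the 4 groups (sham, TCI day 1, TCI day 7, TCI day 14) held 4 samples. The labels describe the sham injection as PBS, whereas the methods of the study describe boiled tumor cells. Sham ganglia were collected on day 14 only, so for TCI day 1 and day 7 the tumor and the time since surgery cannot be told apart.

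PIEZO proteins form cation channels that open when the membrane is stretched or indented. PIEZO2 is the main transducer of touch and proprioception in sensory neurons, while PIEZO1 is best known from endothelium, red blood cells, immune cells and other non-neuronal cells. ASICs are sodium-permeable channels of the degenerin family that open when extracellular protons accumulate, as they do in inflamed tissue and in bone resorbed by osteoclasts. ASIC1 and ASIC3 carry much of the fast acid response of sensory neurons, ASIC2 modifies the channels it joins, and ASIC4 does not by itself form a proton-gated channel.

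Levels are given as FPKM, read fragments scaled by transcript length and library size, which allows genes of different length to be compared. The number of reads behind each value was not given in the sources used here. TCI day 1 sample 2 and TCI day 7 sample 3 were left out of the statistics by the study and enter no mean or test below unless stated, which leaves 14 samples. Both stood apart in marker lists of other cells. The summed FPKM of the Schwann cell list was 20650 in the first, against 6936 to 13910 over the 14 samples. That of the skeletal muscle list was 24530 in the second, against 10.2 to 11.7 in sham samples 1 to 3. Sham sample 4 stood apart on the muscle list too, at 613.7 against at most 24.1 in any other of the 14 samples. It was kept in the reported analysis, and its Piezo1 of 1.98 FPKM was the highest in sham. Differences were tested with limma on log2(FPKM + 1), with all 4 groups in a single fit, over the 14023 genes that reached 1 FPKM in 3 or more samples, and a gene was called at a Benjamini-Hochberg adjusted p of at most 0.05. Fold differences on this scale understate those of genes near 1 FPKM, Piezo1 among them. In whole ganglia, fewer cells of a type and less RNA per cell cannot be told apart. All 13 pan-neuronal and all 13 nociceptor markers passed the filter, as did all 9 Schwann cell and all 12 endothelial markers.

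The channels differed widely in level, and their order was Asic3, Asic1, Piezo2, Asic2, Piezo1 and Asic4 in each of the 16 samples. In sham ganglia Asic3 averaged 89.4 ± 5.49 FPKM (SD, n = 4) and Asic1 65.5 ± 2.58 FPKM. Piezo2 averaged 45.0 ± 0.930 FPKM, Asic2 10.6 ± 0.345 FPKM, Piezo1 1.69 ± 0.220 FPKM and Asic4 0.350 ± 0.0783 FPKM. Asic3 exceeded 95.8% of all listed genes in mean sham level, Asic1 93.8%, Piezo2 90.7% and Asic2 68.8%, whereas Piezo1 exceeded 42.0% and Asic4 29.4%. Over the 14 samples no neighbours in this order overlapped, the closest being Asic3, which was never below 71.2 FPKM, and Asic1, which was never above 70.3 FPKM. Asic4 stayed between 0.230 and 0.460 FPKM in these samples, did not reach the filter in any group and was not tested, so statements on the tested members cover 5 of 6 channels.

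**Figure D1:**
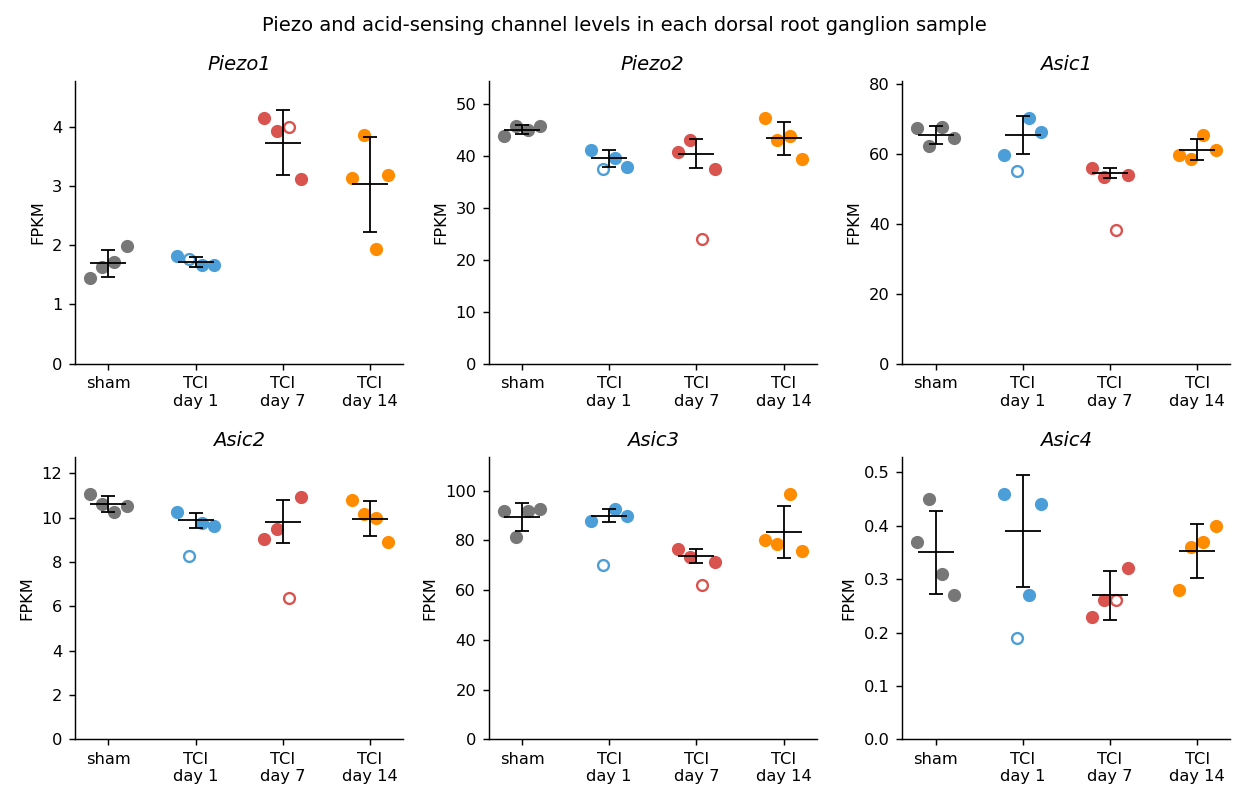
FPKM of each channel (vertical axis, starting at 0) in each sample of the 4 groups (horizontal axis), with the mean and SD in black; open circles are the 2 samples left out of the means. Piezo1 lay at 3.12 FPKM or above in the TCI day 7 samples and at 1.98 FPKM or below in sham, while Asic1 and Asic3 were lower on TCI day 7 than in any sham sample.

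On TCI day 1 the 5 tested channels did not differ detectably from sham. No channel was called by limma, as was none of the 14023 genes (0%). In all, 1 of the 5 had an unadjusted limma p under 0.05, against 5.23% of all genes. That channel was Piezo2. Its levels were 41.1, 39.5 and 37.8 FPKM on day 1 and 43.8, 45.8, 44.9 and 45.7 FPKM in sham. Each day 1 sample was below each sham sample, a separation in the lower direction that 5.73% of all genes showed. The log2 difference of Piezo2 was -0.19 (SE 0.060, 95% interval -0.32 to -0.06, limma adjusted p = 0.793). For Piezo1 the difference was 0.02 with an interval of -0.29 to 0.32, so that a change of moderate size could have been missed. Asic1 differed by -0.00 (interval -0.13 to 0.12), Asic2 by -0.10 and Asic3 by 0.01, each with overlapping groups.

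On TCI day 7, Piezo1 rose and the neuronal acid sensors Asic1 and Asic3 fell, while Piezo2 and Asic2 did not pass the test. Thus 1 of 5 tested channels was called higher, against 14.5% of all genes, and 2 of 5 lower, against 3.45% of all genes. Piezo1 measured 4.15, 3.93 and 3.12 FPKM on day 7, compared with 1.45, 1.63, 1.71 and 1.98 FPKM in sham. The groups did not overlap, which was so in this direction for 23.8% of all genes, and the ratio of the means was 2.21. On the log2(FPKM + 1) scale the difference was 0.81 (SE 0.142, 95% interval 0.50 to 1.12, limma adjusted p = 0.00183). The left-out sample 3 of day 7 lay inside the range of its group, and with all 16 samples the difference was 0.83 (adjusted p = 0.000367).

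Asic1, a proton sensor of sensory and central neurons, measured 56.1, 53.6 and 54.1 FPKM on TCI day 7 and 67.5, 62.3, 67.6 and 64.5 FPKM in sham. Every day 7 sample was below every sham sample, as for 10.1% of all genes. Its log2 difference was -0.26 (SE 0.057, 95% interval -0.38 to -0.14, limma adjusted p = 0.00711). Asic3, the acid sensor found mostly in peripheral neurons, measured 76.6, 73.3 and 71.2 FPKM on day 7 and 92.0, 81.2, 91.9 and 92.6 FPKM in sham. Here too the groups did not overlap, though sham sample 2 came within 5 FPKM of the highest day 7 sample. The log2 difference of Asic3 was -0.27 (SE 0.079, 95% interval -0.44 to -0.10, limma adjusted p = 0.0294). This call was not stable: it was lost when sham sample 1, 3 or 4 or TCI day 7 sample 1, 2 or 4 was left out, with adjusted p from 0.0521 to 0.0952. The call of Asic1 held without any single sample.

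The other 2 tested channels had smaller differences on TCI day 7. Piezo2 measured 40.7, 43.0 and 37.5 FPKM. Each was below each sham sample, as for 10.1% of all genes, and the sham samples were those also used for day 1. Its log2 difference was -0.16 (SE 0.060, limma adjusted p = 0.0959). Asic2 measured 9.05, 9.50 and 10.9 FPKM against 11.1, 10.6, 10.3 and 10.5 FPKM in sham. These groups overlapped, and the difference of -0.11 had an interval of -0.25 to 0.04 (limma adjusted p = 0.325). Asic4 ranged from 0.230 to 0.320 FPKM on day 7 and from 0.270 to 0.450 FPKM in sham.

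On TCI day 14 Piezo1 was the only tested channel called, which made 1 of 5 higher against 11.9% of all genes and 0 of 5 lower against 3.21%. No other channel had an unadjusted limma p under 0.05. Its levels were 3.13, 3.86, 1.94 and 3.19 FPKM. Sample 3 lay within the sham range, so the groups overlapped, while the other 3 samples were above every sham sample. The ratio of the means was 1.79 and the log2 difference 0.56 (SE 0.132, 95% interval 0.28 to 0.85, limma adjusted p = 0.0129). In a fit of the TCI day 14 and sham samples alone the adjusted p was 0.0518. Piezo2 measured 47.3, 43.0, 43.7 and 39.4 FPKM and Asic1 59.8, 58.6, 65.4 and 61.2 FPKM, both overlapping sham, with log2 differences of -0.06 and -0.10. Asic2 and Asic3 differed by -0.09 and -0.11, with adjusted p of 0.384 and 0.354 by limma. Asic3 spread most on this day, at 80.1, 78.7, 98.8 and 75.6 FPKM. Sample 3, which held the lowest Piezo1 of its group, held the highest Asic3 of all 16 samples. Without it Asic3 differed from sham by -0.19 (limma adjusted p = 0.0193) and was called.

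Set against TCI day 1 instead of sham, the day 7 samples gave the same 3 calls. Piezo1 was higher on day 7 than on day 1 by 0.79 (limma adjusted p = 0.0049), 1 of 5 against 9.02% of all genes, and the samples did not overlap (23.8% of all genes in this direction). Asic1 and Asic3 were lower on day 7, with log2 differences of -0.26 and -0.28 (limma adjusted p = 0.0169 and 0.0494), 2 of 5 against 1.42% of all genes, and both were without overlap (8.23% of all genes). The Asic3 call was lost in 10 of the 14 fits that left out a single sample, and that of Asic1 without TCI day 1 sample 3 or 4 or TCI day 7 sample 2 (adjusted p 0.0651 to 0.0805). With all 16 samples only Piezo1 was called. These comparisons share the day 7 samples with those against sham.

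From day 7 to day 14 no tested channel was called, where 0.00713% of all genes were called higher and 0.0927% lower. The mean of Piezo1 was 3.73 ± 0.542 FPKM (SD, n = 3) on day 7 and 3.03 ± 0.799 FPKM (n = 4) on day 14, with overlapping samples (log2 difference -0.25, limma adjusted p = 0.589). Asic1 was higher in each day 14 sample than in each day 7 sample, as were 2.79% of all genes. Its adjusted p by limma was 0.348, and it was the single channel with an unadjusted p under 0.05, against 9.96% of all genes. From day 1 to day 14 Piezo1 was called higher by 0.55 (limma adjusted p = 0.0367), 1 of 5 against 5.9% of all genes, and 0 of 5 were called lower against 1.06%. That call was lost in 8 of the 14 fits without a single sample, with adjusted p up to 0.117. Those 8 fits left out sham sample 2 or 3, any of the 3 TCI day 1 samples, or TCI day 14 sample 1, 2 or 4. Piezo1 did not overlap between day 1 and day 14, as was so in this direction for 13.8% of all genes.

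The thresholds used by the study were stricter, an absolute log2 difference of 1 or more with an adjusted p no larger than 0.001. No channel met both in any comparison by limma. The share of all genes that did was 1.83% on TCI day 7 and 0.642% on day 14 against sham, 0.884% on day 7 and 0.193% on day 14 against day 1, 0.0143% between day 7 and day 14, and 0% on day 1 against sham.

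**Figure D2:**
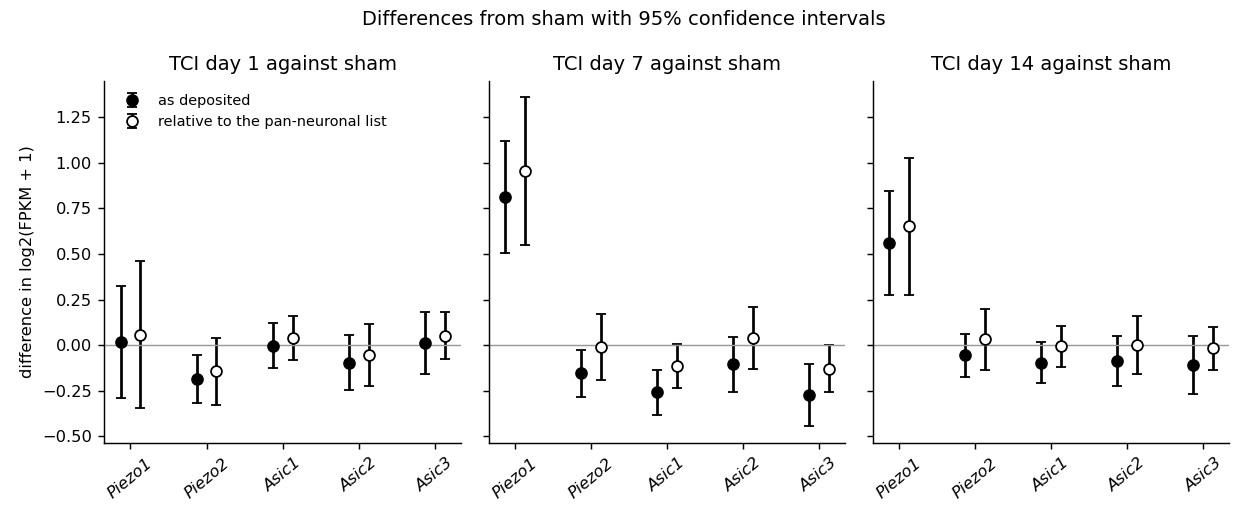
Difference from sham in log2(FPKM + 1) (vertical axis) with 95% confidence intervals for the 5 tested channels on TCI days 1, 7 and 14; filled points use FPKM as deposited and open points are relative to the mean of the pan-neuronal list in each sample. Piezo1 stood at 0.81 on day 7 and 0.56 on day 14 in FPKM as deposited, and relative to the list the day 7 intervals of Asic1 and Asic3 reached 0.

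Because every member but Piezo1 is known chiefly from neurons, the differences were also taken relative to the mean of the 13 pan-neuronal markers in each sample. This scaling moved the median log2 difference of all genes on TCI day 7 from 0.04 to 0.19, and on day 14 from 0.03 to 0.11. On day 7 Asic1 then differed by -0.11 (95% interval -0.23 to 0.01, limma adjusted p = 0.128) and Asic3 by -0.13 (limma adjusted p = 0.109), so that neither call held. Piezo2 differed by -0.01 and Asic2 by 0.04. Piezo1 was called on day 7 at 0.96 (interval 0.55 to 1.36, limma adjusted p = 0.00247) and on day 14 at 0.65 (limma adjusted p = 0.0191). With all 16 samples the day 14 call of Piezo1 relative to the list was lost (0.65, limma adjusted p = 0.0734). The list itself had a median log2 difference of -0.13 on day 7, and 2 of its 13 genes, Snap25 and Rbfox3, were called lower.

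The make-up of each channel family within a sample describes the same shift without reference to other genes. These ratios were chosen after the values were seen and carry no test. In sham, Piezo2 was 26.9 ± 3.01 times Piezo1 (SD, n = 4), with samples from 23.1 to 30.2. The ratio was 23.0 ± 0.562 on TCI day 1 (n = 3), 10.9 ± 1.10 on day 7 (n = 3) and 15.3 ± 5.11 on day 14 (n = 4). All 3 day 7 samples, at 9.81 to 12.0, lay under every sham sample, whereas day 14 sample 3 reached 22.5.

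Among the ASICs the proportions moved little while the total moved. The summed FPKM of Asic1 to Asic4 averaged 165.9 ± 7.65 (SD) in sham, 165.7 ± 7.46 at TCI day 1, 138.4 ± 3.12 at day 7 and 154.8 ± 13.3 at day 14. Asic3 made up 53.9% of that sum in sham and 53.3% on day 7, and Asic1 39.5% and 39.4%. Asic2 made up 6.42% in sham and 7.11% on day 7, and Asic4 0.213% and 0.196%. The ratio of Asic3 to Asic1 accordingly stayed at 1.37 ± 0.0546 in sham and 1.35 ± 0.0289 on day 7, and the left-out TCI day 7 sample 3 was the highest at 1.62.

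**Figure D3:**
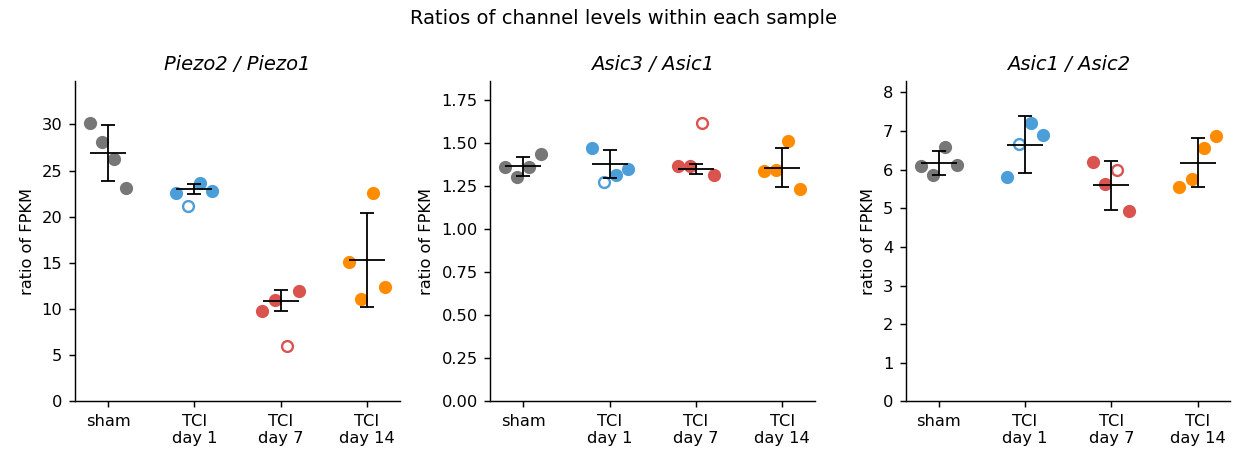
Ratios of FPKM between 2 channels of the same sample (vertical axes, starting at 0) in the 4 groups, with mean and SD in black and the 2 left-out samples as open circles. Piezo2 over Piezo1 was 9.81 to 12.0 on TCI day 7 against 23.1 to 30.2 in sham, while Asic3 over Asic1 averaged between 1.35 and 1.38 in every group.

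Some markers of non-neuronal cells were called on TCI days 7 and 14, and none on day 1. The fibroblast sums of day 1 nevertheless lay above every sham sum. So did the Schwann cell sums, at 12520 to 13910 FPKM against 8443 to 11290 FPKM in sham. Shares of all genes called were 14.5% higher and 3.45% lower on TCI day 7, and 11.9% and 3.21% on day 14. Of the 11 macrophage markers, 11 were called higher on TCI day 7 and 9 on day 14, and their summed FPKM ran from 30.6 to 55.7 in sham and 40.9 to 52.2 on day 1, but from 326.3 to 448.4 on day 7 and 168.1 to 615.1 on day 14. All 8 T cell markers were called higher on both days. Of these, 7 were below 1 FPKM in every sham and TCI day 1 sample. They entered the test only through the day 7 and day 14 samples in which they were high. The macrophage markers Cd163 and Itgam also entered the test only through those samples. The remaining T cell marker, Cd4, was at 4.49 FPKM or more in each of the 14 samples, unlike the other 7. Which cells Cd4 came from was not tested. Of the 8 fibroblast markers 5 were called higher on day 7 and 2 on day 14, with sums of 425.9 to 601.3 FPKM in sham, 638.8 to 824.5 at day 1, 1006 to 1252 at day 7 and 352.7 to 983.1 at day 14. Of the 12 endothelial markers 4 were called higher on day 7, Cdh5, Vwf, Sox17 and Egfl7, and none on day 14 (3 with an unadjusted p under 0.05), and the sums were 81.3 to 84.5 FPKM in sham, 80.6 to 97.0 at day 1, 89.6 to 115.3 at day 7 and 77.1 to 95.8 at day 14. No macrophage, fibroblast or endothelial marker was at 0 in any of the 14 samples. Among the T cell markers, Cd3d, Cd3e, Cd8a and Cd8b were listed at 0 in some samples.

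The sum of the pan-neuronal list was 8725 to 9381 FPKM in sham, 8836 to 9269 at TCI day 1, 7792 to 8987 at day 7 and 8046 to 10300 at day 14. Over all genes 14.5% were called higher and 3.45% lower on day 7, and 11.9% and 3.21% on day 14. By limma none of the 13 nociceptor markers was called on either day (3 on day 7 and 1 on day 14 had an unadjusted p under 0.05). Of 13 markers of large myelinated neurons 4 were lower on day 7 and 3 on day 14, the neurofilament genes Nefh and Nefm on both. Of 8 satellite glia markers 1 was higher and 1 lower on day 7 and 3 were lower on day 14, and of 9 Schwann cell markers none was called on day 7 (3 with an unadjusted p under 0.05) and 1 was lower on day 14. Of the red blood cell list 1 of 4 tested genes, Hbb, was lower on day 7 and none on day 14 (2 with an unadjusted p under 0.05). None of 5 tested muscle genes was called by limma on either day, and none had an unadjusted p under 0.05. On day 1 none of the 150 tested genes of all lists was called by limma, and 14 had an unadjusted p under 0.05, 5 of them Schwann cell markers. For comparison, 5.23% of all genes lay below this limit on day 1. All-gene shares at this limit are not given for days 7 and 14 against sham. The unadjusted counts of list genes on those days therefore cannot be placed above or below the background.

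TCI day 14 sample 3, which held 1.94 FPKM of Piezo1, had the lowest mean of its group on the macrophage list (3.06 on the log2 scale), the fibroblast list (4.70) and the endothelial list (2.59). It had the highest mean of all 16 samples on the pan-neuronal list (7.97). The left-out TCI day 7 sample 3 had the lowest pan-neuronal mean of all (7.16) and the lowest Asic1, Asic2, Asic3 and Piezo2 of all samples, at 38.3, 6.40, 62.0 and 24.0 FPKM. Scaling to the endothelial list moved the median of all genes on day 7 to -0.21. On that scale Piezo1 was called higher on day 7 and the other 4 tested channels were called lower. The scaling shifts all genes of a sample alike and does not show from which cells a gene comes. The part of these cell types in the differences of Piezo1, Asic1 and Asic3 was not tested.

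**Figure D4:**
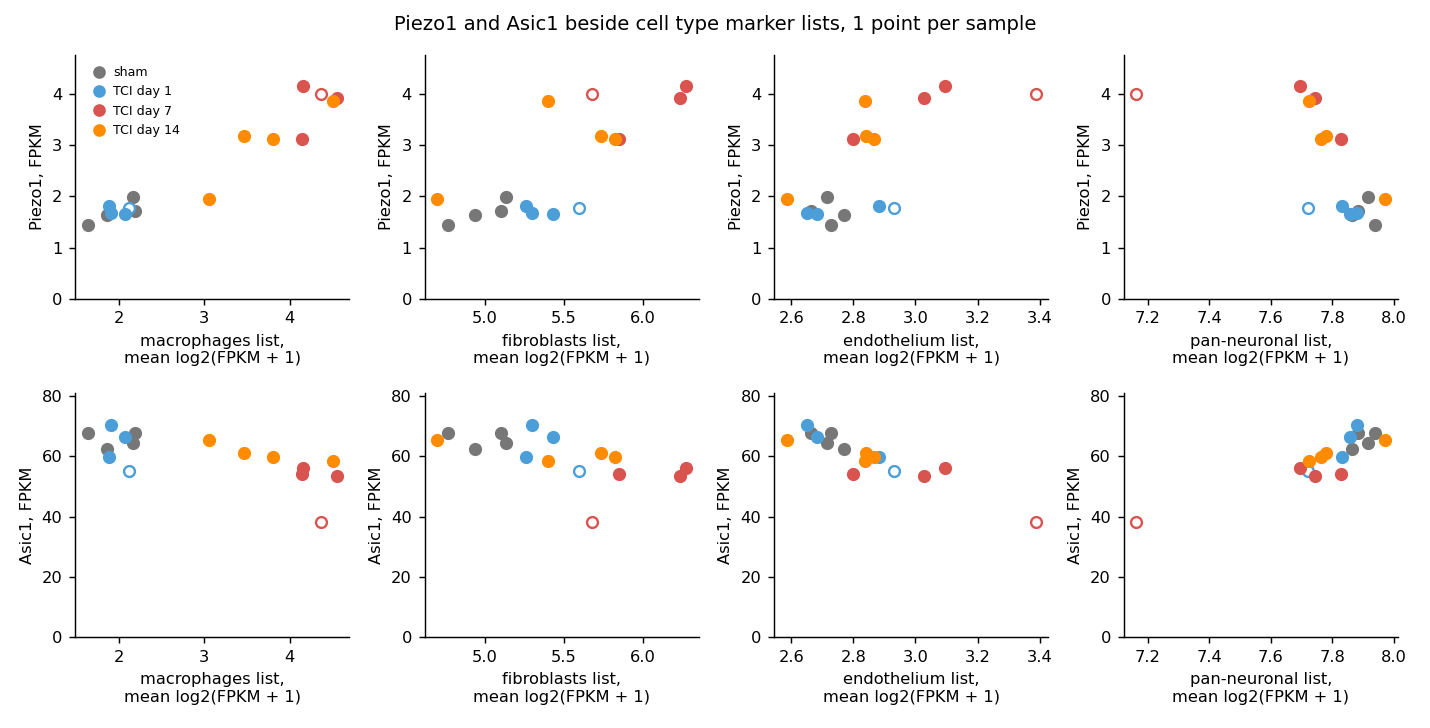
Piezo1 (upper row) and Asic1 (lower row) in FPKM (vertical axes, starting at 0) against the mean log2(FPKM + 1) of the macrophage, fibroblast, endothelial and pan-neuronal lists (horizontal axes), 1 point per sample coloured by group, with the 2 left-out samples open. The TCI day 14 sample at 1.94 FPKM of Piezo1 is the farthest left of its group on the 3 non-neuronal lists and the farthest right of all on the pan-neuronal list.

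The genes closest to each channel in pattern were taken as the 3 with the highest Pearson correlation of log2(FPKM + 1) over the 14 samples. Values share libraries and group differences, and the correlations are descriptions. For Piezo1 they were Arhgap4, a GTPase-activating protein (r = 0.986), the potassium channel gene Kcnk6 (0.985) and the small GTPase gene Arl11 (0.983). The mean FPKM of Arhgap4 was 1.46 in sham and 1.47 at TCI day 1, and 5.19 at day 7 and 3.73 at day 14. Once the group means were removed, the correlations with Piezo1 were 0.935, 0.924 and 0.916, and Clic4 stood first at 0.975.

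For Asic1 the closest genes were Tmem63b, itself a mechanically activated channel gene (r = 0.923), the lysosomal peptide transporter gene Abcb9 (0.919) and the kinase scaffold gene Mapk8ip1 (0.910). Once the group means were removed, these fell to 0.796, 0.725 and 0.740, and Endog stood first at 0.853. For Asic3 the closest genes were the neurotrophin receptor gene Ngfr (0.909), Ywhag (0.907) and Ism2 (0.889), and within groups these were at 0.855, 0.809 and 0.791. Ngfr averaged 287.9 FPKM in sham, 268.8 at TCI day 1, 225.6 at day 7 and 254.9 at day 14. For Piezo2 they were the protocadherin gene Pcdha4 (0.903), the N-type calcium channel gene Cacna1b (0.900) and the membrane skeleton gene Add2 (0.875). Asic2 had the loosest neighbours, Grhl3 (0.834), the vesicular glutamate transporter gene Slc17a6 (0.783) and Mrgprx3 (0.783), and over all 16 samples Grhl3 was at 0.41. Among the channels themselves Asic1 and Asic3 were closest, at 0.875 over the 14 samples and 0.673 within groups. Piezo1 ran opposite to both, at -0.83 with Asic1 and -0.81 with Asic3, and at -0.50 and -0.57 within groups.

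Of 16 listed genes for other proton-sensing membrane proteins and for relatives of the ASICs, 9 were tested. On TCI day 7, 2 of 9 were higher and none lower, against 14.5% and 3.45% of all genes. On day 14, 1 was higher and 1 lower, against 11.9% and 3.21%. The median log2 difference on day 7 was 0.02 beside 0.04 for all genes. The 2 that rose on day 7 were proton-sensing G protein-coupled receptor genes. Gpr65, known from lymphocytes and macrophages, averaged 0.125 FPKM in sham and 1.39 on day 7 (log2 difference 1.08, limma adjusted p = 0.00879), and was still higher on day 14 (0.90, adjusted p = 0.0193). It was below 1 FPKM in every sham and day 1 sample, so it entered the test only through the tumor samples in which it was high. Gpr4, known from endothelium, averaged 1.33 FPKM in sham and 3.03 on day 7 (0.80, limma adjusted p = 0.00108), and on day 14 was not called (adjusted p = 0.384). Tmem206, which encodes a proton-activated chloride channel, fell on day 14 from 9.03 to 7.74 FPKM (-0.20, limma adjusted p = 0.0469). The capsaicin and acid receptor gene Trpv1 averaged 40.7 FPKM in sham and 41.0 on day 7 (0.01, limma adjusted p = 0.949). Asic5, which encodes a further member of the ASIC family, was listed at 0 in all 14 samples.

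Of 21 genes for other mechanically activated channels and partners of PIEZO proteins 17 were tested, and 5 were higher and 2 lower on TCI day 7, against 14.5% and 3.45% of all genes, with a median of -0.04 beside 0.04 for all genes. The osmosensitive channel gene Tmem63a rose from 2.36 to 3.97 FPKM (0.56, limma adjusted p = 0.0222) and its relative Tmem63b fell from 66.2 to 59.1 FPKM (-0.16, adjusted p = 0.0183). The stretch-activated potassium channel gene Kcnk2 rose from 4.93 to 6.98 FPKM (0.43, adjusted p = 0.0198), and Mdfic, which encodes an auxiliary subunit of PIEZO channels, from 5.69 to 7.60 FPKM (0.36, adjusted p = 0.0181). Tmem87a (0.21) and Pkd2 (0.28) were also higher, and Pkd2 is named to complete the count, after its value was seen. The calcium pump gene Atp2a2, whose product binds PIEZO proteins, fell on day 7 (92.9 to 80.1 FPKM, -0.21, limma adjusted p = 0.0255) and day 14 (adjusted p = 0.0241). On day 14, 2 genes were higher, Kcnk2 (0.36, limma adjusted p = 0.0371) and Tmem87a (0.20, adjusted p = 0.0133), and Atp2a2 was the only one lower, against 11.9% and 3.21% of all genes. Stoml3, which encodes a stomatin-like sensitizer of PIEZO channels, stayed between 0.060 and 0.400 FPKM in the 14 samples and was not tested.

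Of 12 listed genes for proteins that bind ASICs, 10 were tested, and none was called higher by limma on either day (2 higher on day 7 and 1 on day 14 at an unadjusted p under 0.05). On each day 1 of 10 was lower, against 3.45% and 3.21% of all genes. The scaffold gene Lin7b fell on TCI day 7 from 26.6 to 20.9 FPKM (-0.35, limma adjusted p = 0.0374), and Slc9a3r1, which encodes a PDZ scaffold, fell on day 14 from 65.4 to 50.7 FPKM (-0.38, adjusted p = 0.0318). Of 18 genes of acid extrusion and pH handling 13 were tested, 2 higher and 1 lower on day 7 (14.5% and 3.45% of all genes) and none higher and 2 lower on day 14 (11.9% and 3.21% of all genes). The share called higher on day 7 was near that of all genes. The lactate exporter gene Slc16a3 rose on day 7 from 0.998 to 1.79 FPKM (0.49, limma adjusted p = 0.0126), having passed the filter only with the tumor samples, and its chaperone gene Bsg from 394 to 489 FPKM (0.31, adjusted p = 0.0100). Carbonic anhydrase gene Car2 fell on day 14 from 51.0 to 41.1 FPKM (-0.31, limma adjusted p = 0.0381). The median differences of the ASIC partner and acid extrusion lists on day 7 were -0.05 and 0.04.

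**Figure D5:**
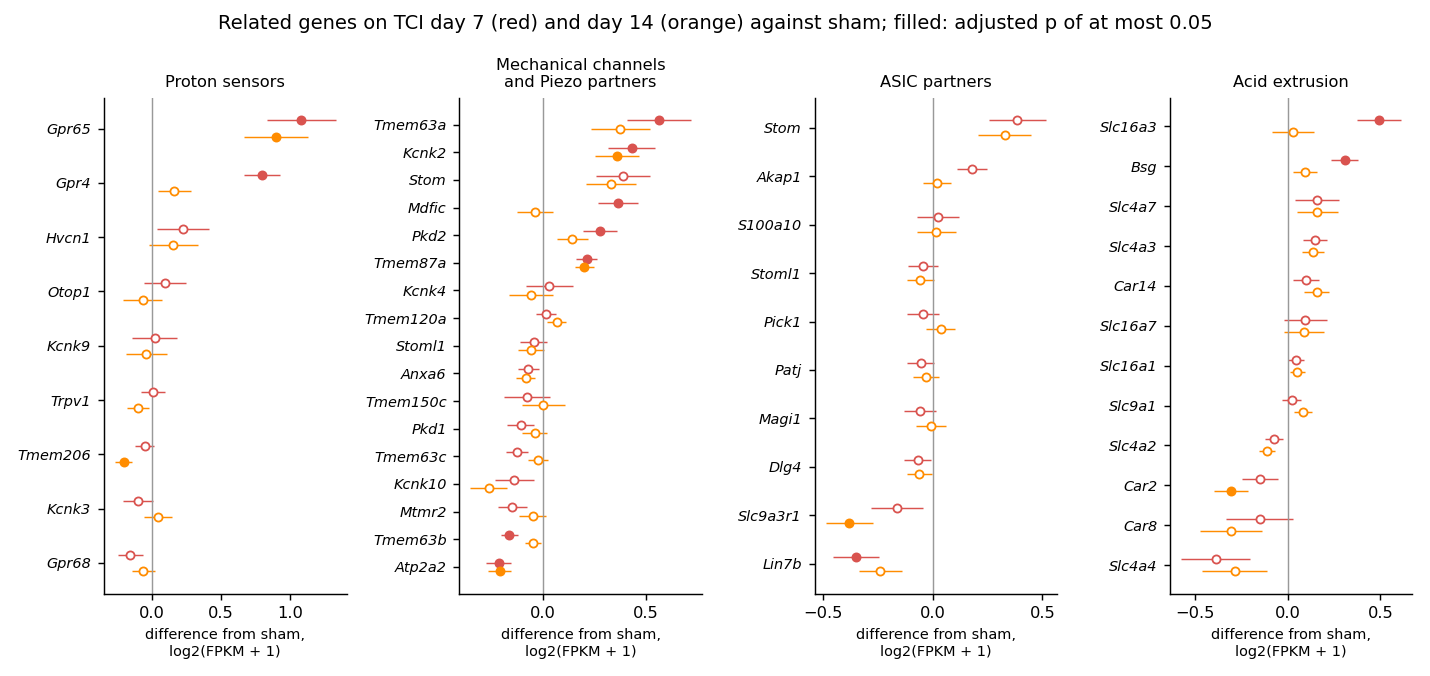
Difference from sham in log2(FPKM + 1) with its standard error (horizontal axes) for the tested genes of the 4 related lists except 1 that is not reported here, on TCI day 7 in red and day 14 in orange, filled where the limma adjusted p was at most 0.05. Gpr65 (1.08 and 0.90) and Gpr4 (0.80 on day 7) lie farthest to the right, and most genes of the 4 lists are open on both days.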

How the data were processed

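RNA of 16 samples was sequenced, and the deposited files hold 1 table of FPKM per sample. According to the methods of the study, reads were aligned with HISAT and Bowtie2 and FPKM values were estimated with RSEM by the authors; the submitters' processing notes also name CASAVA 1.4. The genome build and read counts per gene were not given in the sources used here, so no count model was run and no coordinates are given. FPKM summed to between 436600 and 474000 per sample. Between any 2 samples, at most 2.78% of values were identical.

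log2(FPKM + 1) was fitted with limma 3.58.1 (lmFit, eBayes with trend) in R 4.3.3, for 4 groups and 14 samples, and p-values were adjusted over 14023 genes. The fit was also run on simulated data with noise independent between genes. Its recovery is not reported here, and no statement above rests on it. The members and gene lists were chosen with earlier results of these data known. Named list genes were the up to 3 called genes with the largest difference in each direction per list and day, and some genes are not reported here. The labels number samples 1 to 4 in every group, but each sample came from a different animal. Alternatives were other pseudocounts, filters, scalings, sample sets and a replicate block. The study's own cut-offs were an absolute log2 difference of at least 1 and an adjusted p of at most 0.001. Plots were drawn with matplotlib 3.10.9. Samples within a group were separate animals.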

Additional observations from a re-analysis of the deposited data

Results flagged for a closer look

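Of the 24 sets of 4 samples (6 channels in 4 groups, left-out samples included), 2 held a sample far from the others, where chance would flag about 1 in 20. Asic1 was 38.33 FPKM in TCI day 7 sample 3, and the nearest sample of its group held 53.6 FPKM, a gap of 0.856 of the group's range. This sample was left out of the means by the study. Asic3 was 81.19 FPKM in sham sample 2 against 91.9 FPKM in the nearest sham sample, a gap of 0.936 of the range, and this sample was kept in all means.

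Between time points 3 channels were called in the reported analysis. Tested directly with limma on log2(FPKM + 1), TCI day 7 exceeded day 1 by 0.79 for Piezo1, and TCI day 14 exceeded day 1 by 0.55. The difference between day 7 and day 1 was -0.26 for Asic1 and -0.28 for Asic3. With all 16 samples neither was called (limma adjusted p = 0.0536 and 0.108), nor relative to the pan-neuronal list (0.1 and 0.0733). The Asic3 call was lost in 10 of the 14 fits without a single sample. That of Piezo1 on day 14 was lost in 8 of the 14, and that of Piezo1 on day 7 in 0.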

How the results depend on the processing

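No result changed direction where it had been called. Piezo1 on TCI day 7 kept its call in every fit that changed a single choice and tested it, with log2 differences from 0.56 to 1.10. It was not tested with a mean of at least 5 FPKM and did not meet the study's cut-offs. On TCI day 7 against sham, 3 members were called in the reported analysis, 1 relative to the pan-neuronal list (Piezo1), 5 relative to the endothelial list, 0 by the study's cut-offs and 2 to 3 without a single sample. On day 14 against sham, 1 was called, 0 with only the groups compared, with a mean of at least 5 FPKM and by the study's cut-offs, and 1 to 2 without a single sample. On day 7 against day 1, 3 were called, 1 each with all 16 samples, with a mean of at least 5 FPKM and relative to the pan-neuronal list, 0 by the study's cut-offs, and 1 to 3 without a single sample. On day 14 against day 1, 1 was called, 0 with only the groups compared, without a filter, with a mean of at least 5 FPKM, as TPM, relative to the pan-neuronal list, with the replicate block and by the study's cut-offs, and 0 to 2 without a single sample. Members called relative to the pan-neuronal list on day 14 numbered 1 (Piezo1), and 0 with all 16 samples, an alternative chosen after seeing the data. Genes of all fixed lists called on day 7 numbered 50, 32 with a mean of at least 5 FPKM and 19 by the study's cut-offs. They reached 75 at most under the other alternatives, and numbered 37 to 59 without a single sample. On day 14 they numbered 36, 22 with only the groups compared and 9 by the study's cut-offs. They reached 44 at most under the other alternatives, and numbered 22 to 41 without a single sample. Where a count moved for reasons other than fewer genes, fewer samples or a stricter threshold, the cause was not tested.

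The scaling set the balance of calls over all genes. On day 7 against sham 2028 genes were higher and 484 lower as deposited, 1550 and 945 as TPM, 1396 and 2239 after quantile normalization, 4877 and 36 relative to the pan-neuronal list, and 845 and 3637 relative to the endothelial list. Asic1 and Asic3 were lower on day 7 under each of these, and Asic2 differed in sign. Piezo2 was called lower on day 7 after quantile normalization (-0.20) and relative to the endothelial list (-0.41), and Asic2 relative to the endothelial list (-0.36) and with array quality weights (-0.18).

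Same-numbered samples came from different animals. Correlations of their deviations from the group means ran from -0.095 to 0.27 over the pairs. Whether same-numbered samples shared a batch is not known from the labels and was not tested. With the replicate block, Asic3 on day 7 against day 1 was -0.22 (adjusted p = 0.121) and Piezo1 on day 14 against day 1 was 0.50, both uncalled. Without read counts per gene, the counting error of Asic4 and other values under 1 FPKM could not be computed.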
